A study of Mus musculus with 4 samples.

Results

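The interferon-stimulated genes described here are 37 genes chosen by symbol from a list of interferon effectors and regulators, without class I antigen presentation, immunoproteasome or chemokine genes. All 37 were found among the 49585 genes of the count files. Their transcripts were counted by stranded mRNA sequencing. The cells were C2C12, a mouse myoblast line of strain C3H that forms myotubes when serum is lowered. One group had received an empty retroviral vector (labelled pLXSN) and the other a retrovirus that overexpresses C/EBPβ, a leucine zipper transcription factor, with 2 libraries in each group. Both groups were selected as stable pools, not clones, with 1200 µg/ml G418 for 7 days, and left to proliferate for 2 days in 10% fetal bovine serum. At 90% confluency the medium was changed to 2% horse serum, and RNA was taken after 2 days of differentiation. Both groups therefore share the retroviral transduction and the drug selection, and no untransduced cells were analysed here. The comparison addresses which interferon-stimulated transcripts differ when C/EBPβ is raised during differentiation.

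Type I interferons are secreted when cells sense foreign or misplaced nucleic acid. They bind the receptor IFNAR, whose kinases JAK1 and TYK2 phosphorylate STAT proteins, STAT2 among them. These join IRF9 in the complex ISGF3, which binds the interferon-stimulated response element (ISRE) in the promoters of target genes. Interferon gamma acts through another receptor, and its target genes carry the GAS element. The induced proteins include sensors of viral RNA, enzymes that degrade RNA or stop translation, GTPases and membrane proteins that block viral entry or assembly, and regulators that feed back on the pathway. Many cells keep a low level of these transcripts without infection.

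The promoter sequences are shown because the same element stood near the start of genes that rose and of genes that fell. Promoter windows of 300 bases (250 before to 50 after the start, from RefSeq, build GRCm38.p6) were found for 26 of the 37 genes and not for Dhx58, Zbp1, Usp18, Oas2, Mx1, Mx2, Parp9, Parp14, Ifi27l2a, Ifi27 and Rtp4. The ISRE was searched on both strands as GAAA, NN and GAAA in a row, which reads TTTC, NN and TTTC on the other strand. It was found in 15 of the 26 genes (57.7%), against 3.99% of 27025 genes with a window and 3.44% of all 32851 windows. The next lines give 30 bases around 1 match for 8 of the 15 genes: the 4 that rose, the 2 that fell, and Isg15 and Ifit1 of those that did not pass. These genes and, where a gene had several, the match were chosen after the values and letters were seen. Each runs 5′ to 3′ along the gene's strand with the match in capitals; position 0 is the first transcribed base in RefSeq, so that the matches of Ddx58 and Ifitm3 lie in the transcribed part.
Ddx58 (rose; chr4:40239804-40239833, minus strand, match from position 2): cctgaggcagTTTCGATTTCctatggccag
Gbp2 (rose; chr3:142620594-142620623, plus strand, match from position -59): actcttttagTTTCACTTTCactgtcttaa
Ifitm2 (rose; chr7:140955988-140956017, minus strand, match from position -46): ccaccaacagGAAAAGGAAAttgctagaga
Ifitm3 (rose; chr7:141010706-141010735, minus strand, match from position 19): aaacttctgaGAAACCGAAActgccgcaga
Ddx60 (fell; chr8:61928024-61928053, plus strand, match from position -53): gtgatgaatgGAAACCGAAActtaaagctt
Rsad2 (fell; chr12:26456553-26456582, minus strand, match from position -120): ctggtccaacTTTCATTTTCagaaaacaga
Isg15 (did not pass; chr4:156200871-156200900, minus strand, match from position -72): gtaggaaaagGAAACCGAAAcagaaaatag
Ifit1 (did not pass; chr19:34640775-34640804, plus strand, match from position -104): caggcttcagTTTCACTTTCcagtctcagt

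The element was also found in Bst2, Eif2ak2, Gbp3, Ifih1, Ifit3, Stat2 and Oas1a. It was present in 4 of the 6 genes with a window that rose, in 2 of the 4 that fell and in 8 of the 14 that did not pass. Ifitm3, Ddx60 and Isg15 carried the same letters at these sites, GAAACCGAAA (Ifitm3 and Isg15 also hold matches with other letters), and of the 3 genes Ifitm3 rose, Ddx60 fell and Isg15 did not pass. Ddx60 and Rsad2, the 2 genes with the ISRE that fell, had enough fragments to be tested only in the empty-vector libraries and so could hardly be tested without differing. The GAS element, TTCNNNGAA, was found in 7 of the 26 genes (26.9%), against 9.55% of all genes with a window. The 7 were Irf1, Ifitm3 and Ifi35, which rose, Ifit2, which fell, Eif2ak2 and Bst2, which did not pass, and Oas1a, which was not tested. A C/EBP motif, TTGCNNAA, searched on both strands, was found in Gbp3 and in no other of the 26, against 12.2% of all genes. These matches are descriptions of letters in a short window and not measured binding.

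The libraries held 36461091 to 51537847 fragments assigned to genes. Cebpb, the overexpressed gene, stood at 42.7 and 41.3 CPM in the empty-vector libraries and at 502 and 442 CPM in the C/EBPβ libraries (CPM, counts scaled to library size), 11.2-fold higher, as labelled. Whether the 2 libraries of a group were made from different cultures is not in the labels, and p-values then measure only how far these libraries vary, and that variation may be technical. The myoblast and myotube markers Myod1, Myf5, Myog, Des, Cdh15, Pax7, Mymk and Chrna1 were all detected. Their summed level was 9003 and 9185 CPM with empty vector and 3827 and 4913 CPM with C/EBPβ. Of the 8, 6 fell, Myf5 rose 2.14-fold and Pax7 did not pass, where 20.9% of all genes tested fell and 22.3% rose. In bulk RNA, fewer cells of a type and less RNA per cell cannot be told apart. With 2 libraries on each side the smallest p of an exact permutation test is 0.333. Calls therefore come from edgeR's quasi-likelihood test over all genes, and a gene passed where its adjusted p was under 0.05.

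Testing was possible for 33 of the 37 genes, of which 10 rose and 6 fell. Among all 15886 genes tested, 22.3% rose and 20.9% fell, or 43.2% in either direction, so that the 16 of 33 (48.5%) called here lie near the share of all genes. The genes that rose were Ddx58, Dhx58, Irf1, Gbp2, Ifitm2, Ifitm3, Parp9, Parp14, Rtp4 and Ifi35, and those that fell were Ddx60, Ifit2, Oas2, Mx2, Rsad2 and Xaf1. The median log2 fold change of the 33 was 0.15, against 0.01 over all genes tested, with a range from -4.02 to 1.54. The libraries of the groups did not overlap for 24 of the 33 genes, 15 with C/EBPβ above and 9 with it below, where 38.4% and 36.7% of all genes tested did so (75.1% in either direction). Usp18, Oas1a, Oasl1 and Mx1 had too few fragments to be tested. Ddx60, Oas2 and Rsad2 passed the low-count filter only through the empty-vector libraries and so could hardly be tested without differing.

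Without empty-vector replicate 2, 6 genes were called higher and 3 lower, and over all genes the count of calls was 4005 in place of 6864. The 9 that remained were Ddx58, Irf1, Ifitm2, Ifitm3, Parp14, Rtp4, Oas2, Rsad2 and Xaf1. With a filter at 1 CPM in at least 2 libraries the 10 higher calls stood, and of the 6 lower ones Ifit2 and Xaf1 were the only genes left to test. DESeq2 called 8 of the 33 genes higher and 6 lower, where it called 37.6% of all genes in either direction, and limma-voom called 10 and 6, where it called 43.3%. In the authors' deposited table, at an adjusted p under 0.05, 8 of the 37 genes were higher and 6 lower, against 37.0% of that table's genes in either direction. The mean signal in the authors' deposited table ranged from 0.634 to 1.93 times the normalised mean of these 4 libraries over the central part of 17726 genes (5% of genes lie below and 5% above), and the sources used here do not say which libraries entered it. Of the 33 genes tested here 30 had the same call in the authors' deposited table, and Irf1, Ifi35 and Mx2 missed the threshold there (adjusted p = 0.0511, 0.162 and 0.0518).

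**Figure D1:**
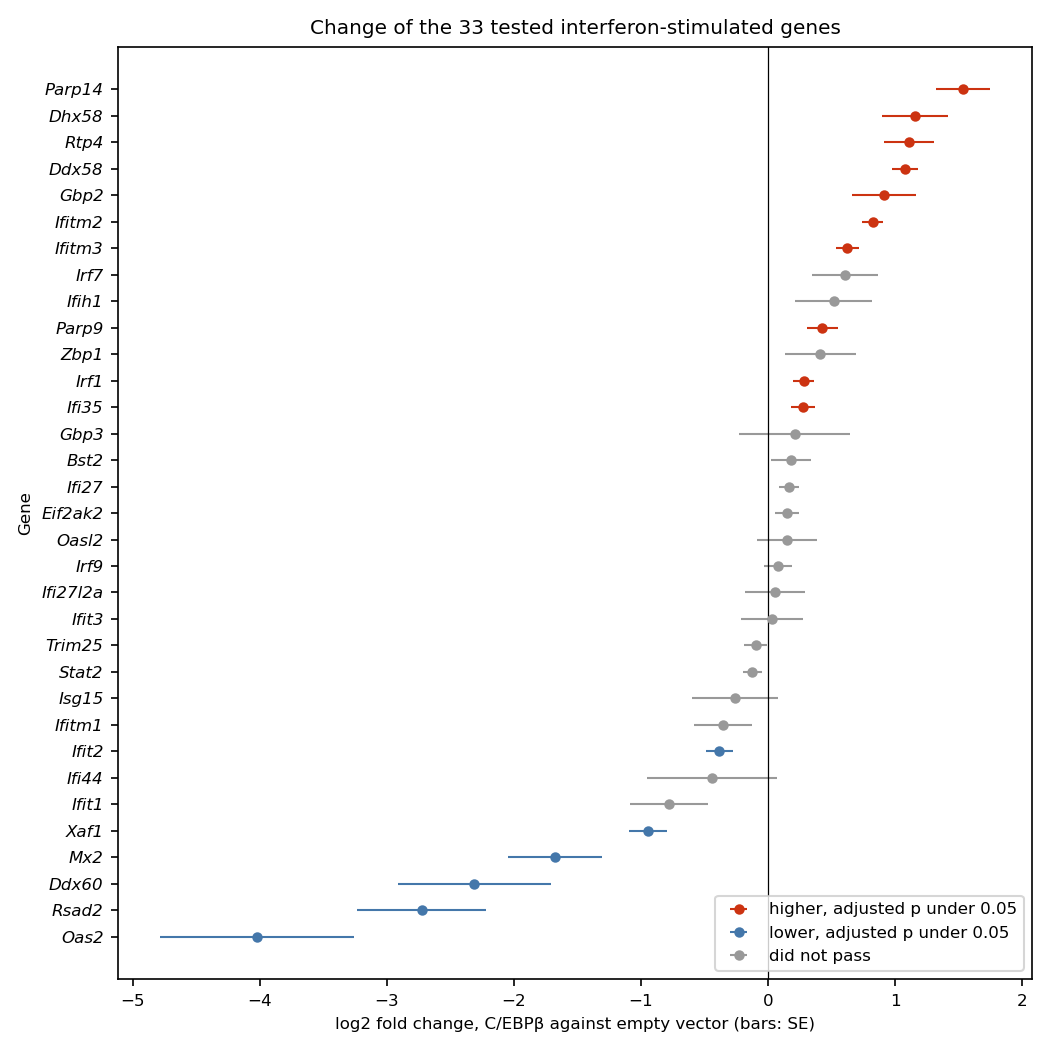
Log2 fold change of C/EBPβ against empty vector for the 33 interferon-stimulated genes that could be tested, in order of size. Bars give the standard error derived from edgeR's quasi-likelihood test. Red marks genes called higher, blue those called lower and grey those that did not pass. The range runs from -4.02 for Oas2 to 1.54 for Parp14, and 17 genes did not pass.

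These transcripts spanned a wide range of levels. Per length, in FPKM (CPM per kilobase of exons), Ifitm3 led in the empty-vector cells at 178 ± 13.9 (mean ± SD, n = 2), followed by Ifi27 at 60.0 ± 1.58 and Ifitm2 at 53.7 ± 1.38. The next were Stat2, Ifi35, Bst2 and Irf1, at 12.3 ± 0.408, 11.7 ± 0.590, 10.8 ± 2.05 and 10.5 ± 0.783 FPKM, levels that lie within a few FPKM of each other and whose spreads partly overlap. In the empty-vector cells 10 of the 37 genes stood above the median of all genes tested (4.46 FPKM) and 19 stood under 1 FPKM. The median level of the 37 was 0.697 FPKM with empty vector and 0.829 FPKM with C/EBPβ. Except for Ifit2 and Xaf1, the genes that fell were among those under 1 FPKM.

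**Figure D2:**
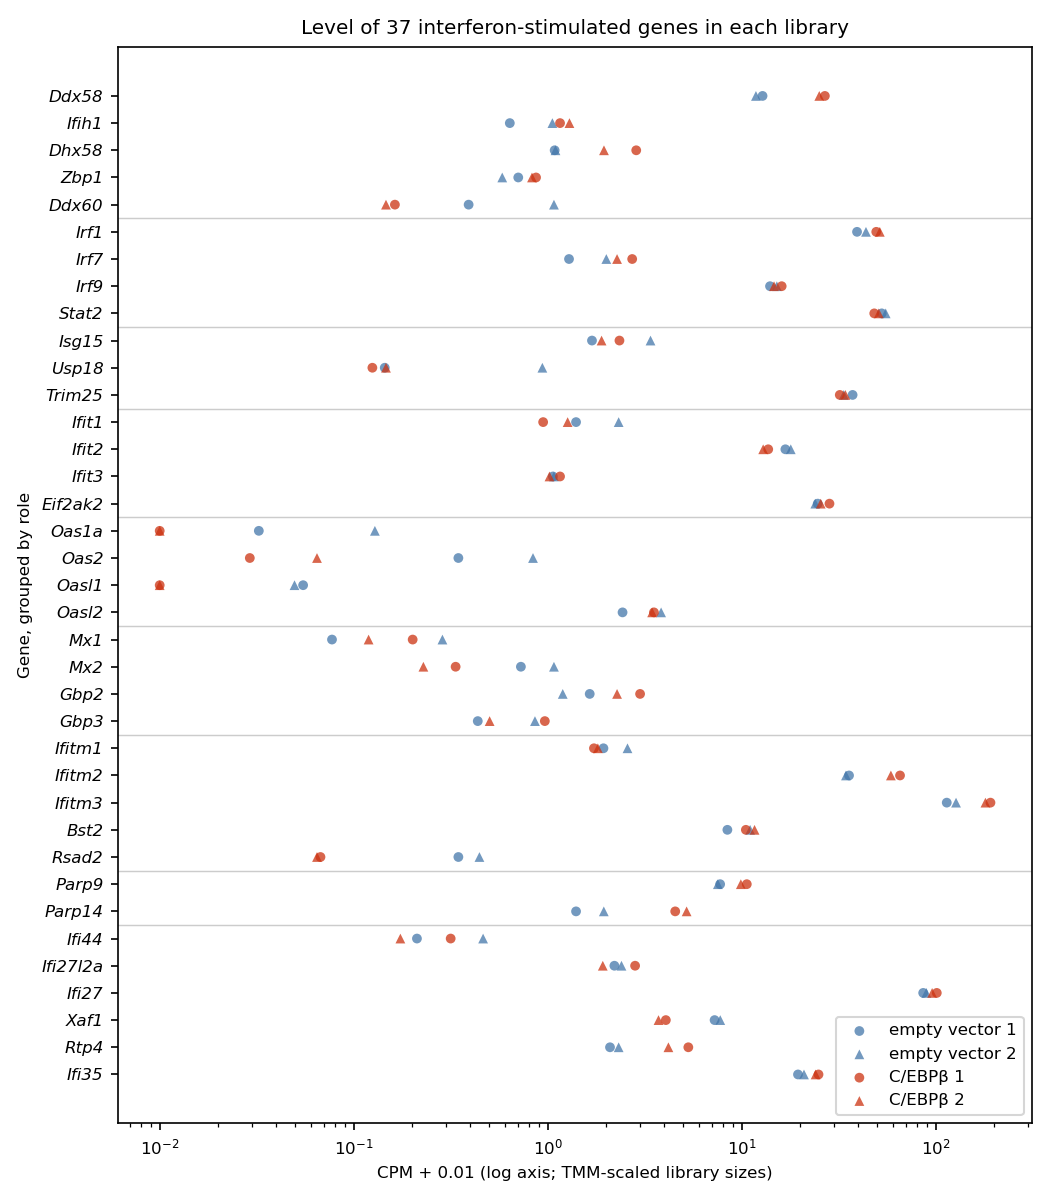
Level of each of the 37 genes in the 4 libraries as CPM + 0.01 on a log axis, grouped by role with grey lines between roles; blue, empty vector; red, C/EBPβ; circles, replicate 1; triangles, replicate 2. Oas1a and Oasl1 had no fragment in the C/EBPβ libraries and sit at 0.01, and Ifitm3 lies at 114 to 192 CPM.

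Among the sensors of nucleic acid the RIG-I family helicases rose in part. Ddx58 encodes RIG-I, which detects RNA with a 5′ triphosphate, and lies on chromosome 4 from 40203773 to 40239828 on the minus strand (GRCm38). It stood at 12.8 and 11.8 CPM in the empty-vector libraries and at 26.9 and 25.1 CPM in the C/EBPβ libraries. The groups were far apart against their spread, a 2.11-fold difference (log2 fold change 1.08, SE 0.10, adjusted p = 0.000161). Dhx58 encodes LGP2, a RIG-I-like helicase without signalling domains, and rose from 1.08 and 1.09 CPM to 2.85 and 1.94 CPM (log2 fold change 1.16, SE 0.26, adjusted p = 0.00808). Its C/EBPβ libraries differed from each other more than its controls did, and without empty-vector replicate 2 its adjusted p was 0.0527. Ifih1, encoding the long double-stranded RNA sensor MDA5, stood at 0.628 and 1.05 CPM against 1.15 and 1.29 CPM, which missed the threshold (adjusted p = 0.204). Zbp1, a sensor of Z-form nucleic acid that triggers necroptosis, did not pass either, at 0.696 and 0.573 CPM against 0.861 and 0.820 CPM.

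Ddx60, a helicase linked to RIG-I signalling, went the other way. It had 17 and 54 fragments in the empty-vector libraries (0.381 and 1.07 CPM) and 8 and 5 in the C/EBPβ libraries (0.153 and 0.137 CPM). The controls were both higher but differed 2.80-fold between themselves. Ddx60 passed the low-count filter only through the empty-vector libraries and so could hardly be tested without differing. Its log2 fold change was -2.31 (SE 0.61, adjusted p = 0.0192), and without empty-vector replicate 2 it was -1.37 with an adjusted p of 0.130.

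Of 4 transcription factors of the response 1 passed, where 43.2% of all genes tested did. Irf1, a factor that interferon gamma and other cytokines induce, stood at 39.4 and 43.8 CPM with empty vector and at 49.4 and 51.6 CPM with C/EBPβ. The 1.21-fold rise passed (log2 fold change 0.28, SE 0.08, adjusted p = 0.0267) but not without empty-vector replicate 1 (0.170), without C/EBPβ replicate 2 (0.103) or in DESeq2 (0.0630). Irf7, the factor that amplifies type I interferon production, stood at 1.28 and 2.00 CPM against 2.72 and 2.27 CPM. The groups did not overlap but the threshold was missed (log2 fold change 0.61, SE 0.26, adjusted p = 0.0954), and it was met without C/EBPβ replicate 2 (0.0238) and without the low-count filter (0.0443), while without empty-vector replicate 1 its log2 fold change was 0.32 (adjusted p = 0.429). The ISGF3 subunits Irf9 (log2 fold change 0.08, SE 0.11) and Stat2 (-0.12, SE 0.08) did not pass, with Stat2 at 52.8 and 55.3 CPM against 48.3 and 51.0 CPM.

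Neither of the ISG15 system genes that could be tested passed, where 43.2% of all genes tested did. Isg15, the ubiquitin-like protein joined to other proteins after interferon, stood at 1.68 and 3.38 CPM with empty vector and at 2.34 and 1.89 CPM with C/EBPβ. Both C/EBPβ libraries lay between the controls (log2 fold change -0.26, SE 0.34, adjusted p = 0.570), and without empty-vector replicate 2 the sign turned (0.33, adjusted p = 0.469). Usp18, which removes ISG15 and restrains the receptor, had 6 and 47 fragments in the controls and 6 and 5 in the C/EBPβ libraries. Empty-vector replicate 2 alone was high. Left out by the low-count filter, Usp18 was called lower in the edgeR fit without that filter (log2 fold change -2.13, adjusted p = 0.000210), which holds that high library. In the fits that left out a library, it could be tested only where empty-vector replicate 2 was kept. In the authors' deposited table the gene was lower (log2 fold change -1.62, adjusted p = 0.0347). Trim25, the ubiquitin ligase that acts on RIG-I, stood at 37.3 and 33.6 CPM against 32.1 and 34.3 CPM (log2 fold change -0.10, adjusted p = 0.423).

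Ifit genes, whose proteins bind foreign RNA ends and block its translation, lie together on chromosome 19. Ifit2 stood at 16.8 and 17.9 CPM with empty vector and at 13.7 and 12.9 CPM with C/EBPβ. Both C/EBPβ libraries were lower, with -0.38 on the log2 scale (SE 0.11, adjusted p = 0.0206), and without empty-vector replicate 2 the adjusted p was 0.127. Ifit1, at 1.39 and 2.31 CPM against 0.938 and 1.26 CPM, missed the threshold (log2 fold change -0.78, SE 0.31, adjusted p = 0.0756); it passed as lower without empty-vector replicate 1 (0.0319), without C/EBPβ replicate 2 (0.00531) and without the low-count filter (0.0144), and without empty-vector replicate 2 its log2 fold change was -0.36 (adjusted p = 0.503). Ifit3 stood at 1.05 and 1.07 CPM against 1.15 and 1.01 CPM (log2 fold change 0.03, SE 0.24), and it shares 51.2% of its 50-base windows with Ifit3b, so that fragments of either may have been left out. Eif2ak2, the kinase PKR that stops translation when it binds double-stranded RNA, stood at 24.7 and 24.0 CPM against 28.4 and 25.6 CPM, a difference that missed the threshold (log2 fold change 0.15, SE 0.10).

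OAS proteins sense double-stranded RNA and make 2′-5′ oligoadenylates as a second messenger, and in these cells Oas1a, Oas2 and Oasl1 had 7, 57 and 4 fragments in the empty-vector libraries together. Oas2, on chromosome 5 from 120730333 to 120749853, had 15 and 42 fragments in the controls and 1 and 2 in the C/EBPβ libraries. The ratio of empty vector to C/EBPβ was 17.7 with an exact 95% counting interval from 5.77 to 88.5, which covers counting error only. The gene passed as lower (adjusted p = 0.00454), and it did so under all 11 alternatives in which it could be tested, with log2 fold changes from -4.80 to -3.21. It passed the low-count filter only through the empty-vector libraries and so could hardly be tested without differing. Oas1a had 1 and 6 fragments in the controls and none in the C/EBPβ libraries. With 3 fragments set as the floor of that group and the control count taken as exact, the ratio was at least 2.18. The gene shares 57.6% of its windows with Oas1g and Oas1b. Oasl1, a paralogue without synthetase activity, had 2 and 2 fragments against none, a ratio of at least 1.24 by the same floor. Counting error of the controls is not covered by these ratios. Without the low-count filter Oas1a and Oasl1 both missed the threshold (edgeR adjusted p = 0.0630 and 0.252). Oasl2 was the most abundant of the family and did not pass, at 2.42 and 3.84 CPM against 3.52 and 3.45 CPM (log2 fold change 0.15, adjusted p = 0.642). Its log2 fold change was 0.52 without empty-vector replicate 2 and -0.14 without replicate 1.

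Of 3 antiviral GTPases tested 1 rose and 1 fell, where 43.2% of all genes tested were called in either direction. Mx2, a dynamin-like GTPase on chromosome 16, stood at 0.718 and 1.07 CPM with empty vector and at 0.325 and 0.219 CPM with C/EBPβ. Both C/EBPβ libraries were lower, 3.19-fold in the fit (log2 fold change -1.68, SE 0.37, adjusted p = 0.00762), and without empty-vector replicate 2 the adjusted p was 0.0725. Mx1, which is non-functional in many laboratory mouse strains, had 3 and 14 fragments against 10 and 4 and was not tested. Gbp2, a guanylate-binding protein that attacks pathogen membranes, rose from 1.64 and 1.19 CPM to 2.99 and 2.27 CPM (log2 fold change 0.91, SE 0.25, adjusted p = 0.0205). Its call was lost without empty-vector replicate 2 (0.151) and without C/EBPβ replicate 1 (0.0542). Gbp3, its neighbour on chromosome 3, overlapped between the groups at 0.426 and 0.850 CPM against 0.957 and 0.492 CPM.

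Of 5 membrane-bound restriction factors tested 2 rose and 1 fell, where 43.2% of all genes tested were called in either direction. Per length, Ifitm3 was the most abundant of the 37 transcripts. Ifitm3, which traps virus particles in endosomes, lies on chromosome 7 from 141009586 to 141010770 on the minus strand. It stood at 114 and 128 CPM with empty vector and at 192 and 181 CPM with C/EBPβ, with the groups well apart. The rise was 1.54-fold (log2 fold change 0.62, SE 0.09, adjusted p = 0.00117). Ifitm2, its paralogue nearby, rose from 35.8 and 34.5 CPM to 65.6 and 58.8 CPM (log2 fold change 0.82, SE 0.08, adjusted p = 0.000212). Over 40.9% of its exon bases Ifitm2 is overlapped on the same strand by Gm45717, and fragments there may not have been counted. Ifitm1, the third paralogue of the cluster and found at the cell surface, did not pass, at 1.93 and 2.57 CPM against 1.72 and 1.81 CPM (log2 fold change -0.36, SE 0.23). Bst2, the tetherin that holds budding virus at the membrane, did not pass (log2 fold change 0.18, SE 0.15).

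Rsad2 encodes viperin, a radical enzyme that makes a chain-terminating nucleotide. It had 15 and 22 fragments in the controls and 3 and 2 in the C/EBPβ libraries (0.337 and 0.435 CPM against 0.0574 and 0.0547 CPM). Both C/EBPβ libraries were lower, 6.62-fold in the fit (log2 fold change -2.73, SE 0.51, adjusted p = 0.00358). Its call held under the 11 alternatives in which the gene could be tested (log2 fold changes from -2.89 to -2.52). The gene passed the low-count filter only through the empty-vector libraries and so could hardly be tested without differing.

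Both PARP genes, whose products attach or bind ADP-ribose, rose, where 22.3% of all genes tested did. Parp14, on chromosome 16 from 35832874 to 35871544, stood at 1.39 and 1.94 CPM with empty vector and at 4.54 and 5.20 CPM with C/EBPβ. The 2.90-fold rise was the highest among the 33 genes (log2 fold change 1.54, SE 0.22, adjusted p = 0.000982). Parp9, close by on the plus strand of the same chromosome, rose less, from 7.74 and 7.53 CPM to 10.6 and 9.90 CPM (log2 fold change 0.43, SE 0.12, adjusted p = 0.0236). Its adjusted p was 0.0837, 0.124 and 0.111 without empty-vector replicate 1, empty-vector replicate 2 and C/EBPβ replicate 1.

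Of the remaining interferon-induced genes 2 rose and 1 fell, where 43.2% of all genes tested were called in either direction. Rtp4, a chaperone of membrane receptors, rose from 2.09 and 2.31 CPM to 5.30 and 4.18 CPM (log2 fold change 1.11, SE 0.20, adjusted p = 0.00278), and 13.9% of its exon bases are overlapped by Gm45338. Ifi35, a partner of the protein Nmi, rose 1.21-fold (adjusted p = 0.0476) and passed in 4 of 12 alternatives only. Xaf1, which antagonises the apoptosis inhibitor XIAP, fell from 7.25 and 7.75 CPM to 4.06 and 3.72 CPM, with both C/EBPβ libraries well below the controls (log2 fold change -0.94, SE 0.15, adjusted p = 0.00170). Ifi27, a mitochondrial and nuclear membrane protein, was high in every library at 86.3 to 101 CPM and missed the threshold (log2 fold change 0.17, SE 0.08, adjusted p = 0.116). Its relative Ifi27l2a (0.06, SE 0.24) and the microtubule-associated Ifi44 (-0.44, SE 0.51) did not pass.

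The libraries of the empty-vector group differed from each other for these genes more often in one direction. Of the 37 genes 29 were higher in empty-vector replicate 2 than in replicate 1, against 48.7% of all genes tested. In the C/EBPβ group 10 of the 37 were higher in replicate 2 than in replicate 1, against 49.4% of all genes. The ratio of empty-vector replicate 2 to replicate 1 was highest for Usp18 (6.90), Oas1a (5.29) and Mx1 (4.11), which had too few fragments to be tested. Next came Ddx60 (2.80), Oas2 (2.47), Ifi44 (2.25), Isg15 (2.01), Gbp3 (1.99), Ifih1 (1.67) and Ifit1 (1.66). All 6 genes that fell were higher in empty-vector replicate 2, with a median log2 ratio of 0.40 (CPM + 0.1), and 6 of the 10 that rose were, with a median of 0.06. Beyond the fits without that library, the part of this difference in the calls was not tested.

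**Figure D3:**
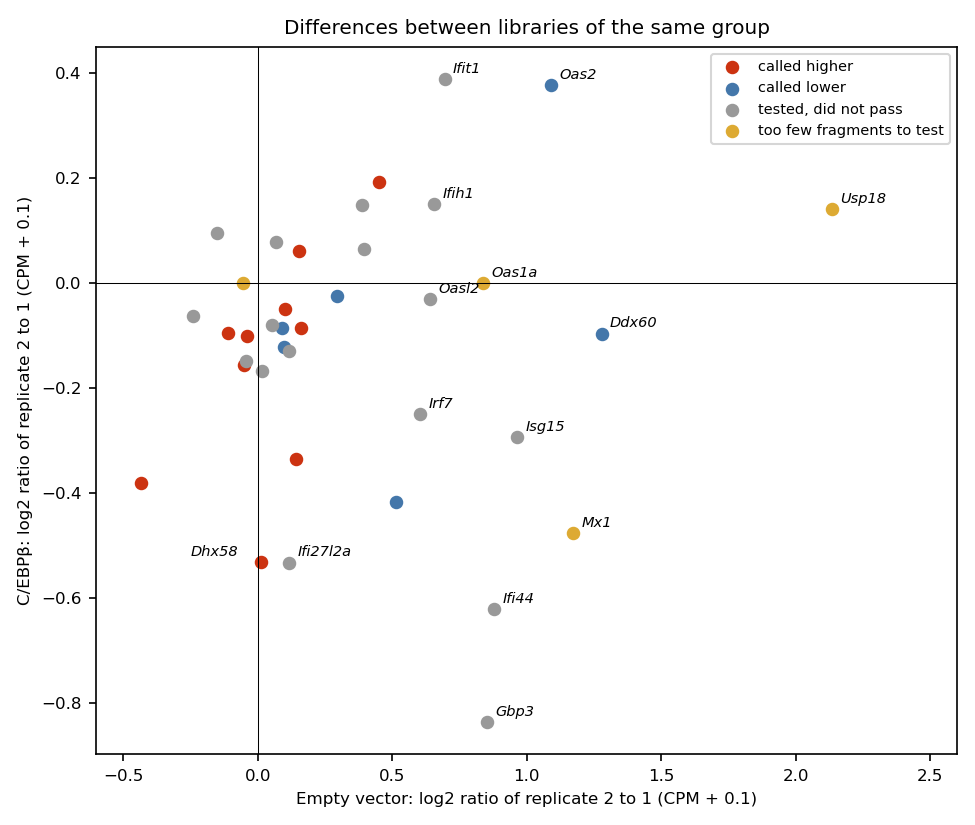
Log2 ratio of replicate 2 to replicate 1 (CPM + 0.1) within the empty-vector group (x axis) and within the C/EBPβ group (y axis), 1 point for each of the 37 genes; red, rose; blue, fell; grey, did not pass; yellow, not tested. Most points lie right of 0, with Usp18 farthest, where the empty-vector libraries had 6 and 47 fragments.

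Ligands of the pathway had few counted fragments or none, while those of its receptor genes that could be tested rose. Of 17 interferon genes listed, 14 had no fragment in any library, which allows up to 3 fragments or 0.0574 to 0.0820 CPM in each. That limit holds for uniquely mapped fragments, since multi-mapping ones were not counted, and sequence sharing among these genes was not measured. Ifnz had 2 to 9 fragments a library, Ifng 1 to 3, and Ifnab 1 in all. All 5 receptor genes tested of 6 listed rose, where 22.3% of all genes tested did. Ifnar2, a subunit of the type I receptor, rose from 21.6 ± 1.35 to 38.6 ± 1.08 CPM (mean ± SD, n = 2; edgeR adjusted p = 0.000292), and Ifnar1, Ifngr1, Ifngr2 and Il10rb rose by log2 fold changes of 0.36, 0.38, 0.25 and 0.75. Ifngr2 lost its call without either empty-vector library (adjusted p = 0.0571 and 0.164), without C/EBPβ replicate 2 (0.130) and in DESeq2 (0.0744), and Ifnar1 without empty-vector replicate 2 (0.0676).

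Of 10 JAK-STAT genes tested 5 rose and 0 fell, where 22.3% of all genes tested rose and 20.9% fell (43.2% in either direction). Socs1, the inhibitor of JAK kinases induced by interferon, rose from 3.33 ± 0.371 to 12.1 ± 0.833 CPM, 3.65-fold (n = 2 each; edgeR adjusted p = 6.36e-05). The kinase genes Jak1 and Jak2 rose by log2 fold changes of 0.70 and 0.78 and the inhibitor Socs3 by 0.60. Tyk2 (0.17), Ptpn2 (-0.12), Ptpn6 (-0.49), Ptpn11 (-0.16) and Pias1 (0.03) did not pass. Of 7 other IRF genes and IRF2-binding partners tested, Irf2, a repressor of IRF1 targets, and its partner Irf2bp2 rose (0.69 and 0.44), while Irf3, Irf5, Irf2bp1 and Irf2bpl did not pass (-0.06, 0.55, 0.09 and 0.09).

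Of 12 sensing adaptors and kinases tested 6 rose and 1 fell. Tlr3, the endosomal double-stranded RNA receptor, and Ikbke, a kinase of IRF3, rose by log2 fold changes of 1.07 (SE 0.18) and 1.06 (SE 0.16). Ifi204, a DNA sensor, rose by 0.80, and Rnf135, Myd88 and Ticam1 by 0.58, 0.46 and 0.43, while the adaptor Traf3 fell by 0.32 on the log2 scale and the kinase Tbk1 did not pass (-0.15, adjusted p = 0.122). Among other interferon effectors 22 of 45 tested rose and 4 fell. Among those with the smallest p were Lgals9 and Lgals3bp (log2 fold changes 1.76 and 1.67), Sp100 (2.45), Parp10 (1.02), Shisa5 (0.74), Mov10 (0.82) and Apol9b, which fell (-1.69). Over these 5 lists 40 of 79 tested genes rose and 6 fell, with a median log2 fold change of 0.43, against 10 and 6 of 33 and a median of 0.15 for the interferon-stimulated genes above. In the same fit 22.3% of all genes rose and 20.9% fell. Of the 79, 3 passed the low-count filter only through the C/EBPβ libraries. The lists were chosen with earlier results of these data known, so these shares describe the lists and draw no conclusion.

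**Figure D4:**
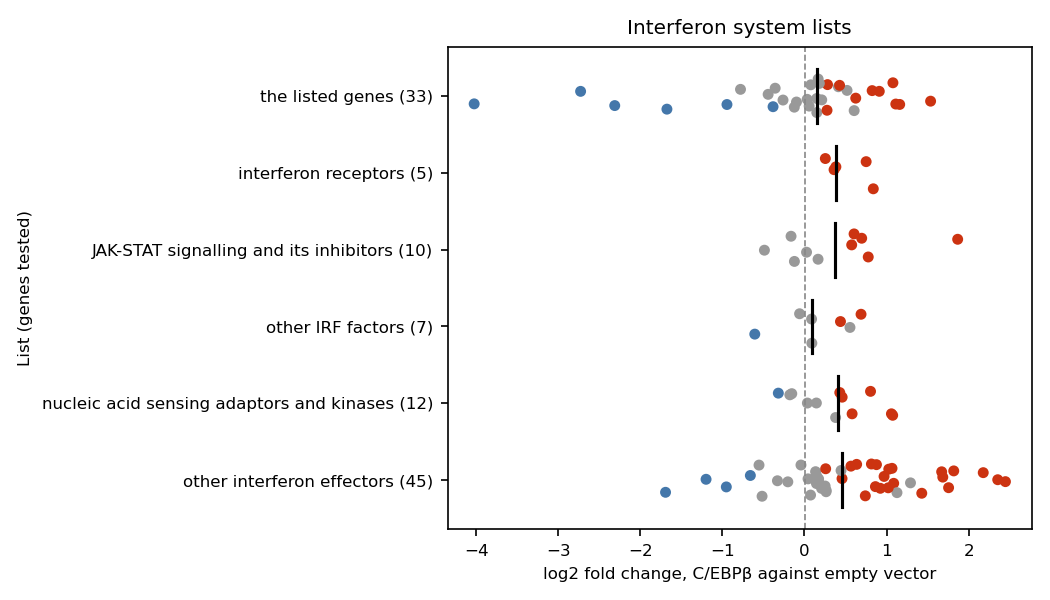
Log2 fold change of each tested gene in the 37 listed interferon-stimulated genes (33 tested) and in 5 other lists of the interferon system; red, higher; blue, lower; grey, did not pass; black bars, medians; dashed line, median of all genes tested (0.01). All 5 receptor genes lie right of 0, and the lowest point is Oas2.

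Immune cells can carry these transcripts, so their markers were measured in the same libraries. Of 10 macrophage markers Adgre1, Fcgr1, C1qa and C1qb had no fragment in any library and Ptprc had 1 in each of 2 libraries. Their summed level was 3.72 and 3.48 CPM with empty vector and 32.9 and 30.5 CPM with C/EBPβ, where Lyz2 had 1484 and 954 fragments; Csf1r also rose, Itgam fell, and Cd68 and Mrc1 did not pass. Of 8 markers of plasmacytoid dendritic cells and lymphocytes Siglech, Nkg7 and Klrb1c were among those with no fragment, and the summed level of all 8 stayed at 0.0273 to 0.178 CPM. Endothelial markers summed to 1.90 to 2.00 CPM in every library, with Tie1 and Emcn at 0; of the 2 tested Tek fell 2.47-fold (adjusted p = 0.0361) and Vwf did not pass. Markers of fibroblasts summed to 814 and 747 CPM with empty vector and to 1162 and 1019 CPM with C/EBPβ (4 of 7 rose, 1 fell). Those of fat cells summed to 25.6 and 25.4 CPM and to 1512 and 1065 CPM. Lpl held 15.9 and 17.4 CPM of the former and 1492 and 1050 CPM of the latter. The 4 fat-cell genes tested of 7 listed rose, where 22.3% of all genes tested did. Among them Plin1 and Fabp4, like Lyz2 above, passed the low-count filter only through the C/EBPβ libraries and so could hardly be tested without differing. Adipoq had 18 and 1 fragments with C/EBPβ, Cidec 1 and 0, and Lep none. The part of these markers' shift in the changes of interferon-stimulated genes was not tested.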

How the data were processed

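Unnormalised gene counts were deposited as 1 file a library. HISAT2 2.0.4 and the build GRCm38 come from the submitters' processing notes. Per the file headers, featureCounts 1.5.1 (1.4.6 in the notes) assigned fragments to GENCODE M12 genes in reverse-strand mode, without its options for multi-mapping or multi-overlapping fragments. The authors also deposited 1 comparison table with a mean signal, a log2 fold change and its error, a score, and p-values before and after adjustment; the notes name DESeq2.

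Symbols came from GENCODE M21, which matched 49326 of 49585 identifiers. Of 26401 genes with a fragment, 15886 passed filterByExpr (minimum count 10, minimum total 15). Groups were compared with edgeR 4.0.16 in R 4.3.3 (TMM, robust glmQLFit, glmQLFTest, 2-sided, Benjamini-Hochberg over all genes, threshold 0.05). Each SE given with an edgeR fold change was derived from that test, as the absolute log2 fold change divided by the square root of its F score. CPM and FPKM use TMM-scaled library sizes. The script was tested on simulated data. Alternatives used DESeq2 1.42.0, limma 3.58.1 (voom), other scalings and filters, a replicate block and leaving out each library. No library was a copy of another (chi-square per degree of freedom 20.0 and 28.5 within groups). Sharing of sequence is the percent of a gene's 50-base transcript windows found in other genes of GENCODE M21. The 37 genes and the other lists were chosen with earlier results of these data known. The genes to name were all 37, Cebpb, every tested ligand, receptor, JAK-STAT and IRF gene, and the 8 genes with the smallest p in the sensing and effector lists; Oas1b, Oas1g and Oas3, and the cell type markers and the 3 ligands with fragments, were named outside that rule. A few genes of these lists are not reported here.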

Additional observations from a re-analysis of the deposited data

How the results depend on the processing

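Of the 16 genes called, 8 kept their call and direction under each of the 12 alternatives in which they could be tested (Ddx58, Ifitm2, Ifitm3, Parp14, Rtp4, Xaf1, Oas2 and Rsad2), and 15 of the 17 uncalled genes were never called; the exceptions were Irf7 and Ifit1. Of the 8, Oas2 and Rsad2 passed the low-count filter only through the empty-vector libraries and so could hardly be tested without differing. No called value reversed. Without each library in turn, the interferon-stimulated genes called higher ranged from 6 to 9 and those called lower from 3 to 8, the other pathway genes called lower from 3 to 6, and all calls from 4005 to 7414; the lowest counts came without empty-vector replicate 2, and the cause was not tested. With the 1 CPM filter 2 of them were called lower, since 26 were tested and 4 of the 6 were not. With the replicate block 10 were higher and 7 lower, Ifit1 being gained, and 7677 genes were called; equal replicate numbers also share a number in the names of the count files, but no source says what it marks, and the correlation of their deviations was 0.19. In fits without a library, the lone library left is assumed to vary like the other group. Usp18, Oas1a, Oasl1 and Mx1 had too few fragments for the low-count filter. Usp18 was called lower without that filter. In the fits without a library, Usp18 could be tested only where empty-vector replicate 2, its only high library, was kept.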

Other observations

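The neighbours of Oas2 in the OAS cluster of chromosome 5 did not all move its way. Oas3 had 2 and 10 fragments in the empty-vector libraries and none in the C/EBPβ libraries, and Oas1g had 1 and 5 against none. With 3 fragments as the floor of the C/EBPβ group and the control counts taken as exact, the ratios of empty vector to C/EBPβ were at least 3.73 and 1.87. Both genes were left out by the low-count filter. Without that filter Oas1g missed the threshold (edgeR adjusted p = 0.104) and Oas3 met it (0.00424), while Oas3 missed it in the authors' deposited table (0.0559). Oas1b had 1 and 4 fragments against 14 and 8 and was called higher in edgeR's quasi-likelihood test (log2 fold change 2.18, SE 0.61, adjusted p = 0.0218), having passed the low-count filter only through the C/EBPβ libraries. These genes were chosen after their values were seen. Oas1a shares 57.6% of its 50-base windows with Oas1g and Oas1b, so that the counts of these 3 genes are uncertain, while Oas2 shares none.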
